A study of Oryza sativa with 6 samples.

Results

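The peaks described here are all those that BG4-DNA-IP-seq gave for rice genomic DNA under K+PDS, the condition in which potassium and pyridostatin (PDS) were present during the pulldown. A G-quadruplex (G4) is a four-stranded DNA structure in which runs of guanines stack in planes around a potassium ion. PDS is a small molecule that binds and stabilizes G4s, and BG4 is a single-chain antibody that recognizes the folded structure. The DNA was purified, fragmented, denatured and refolded before the pulldown. The peaks therefore report sequences enriched with BG4 in the tube, and not where chromatin allows G4s in the plant. No motif was checked here, so a peak does not by itself show a G4.

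All peaks of both K+PDS libraries on the 12 chromosomes were taken, 64874 in replicate 1 and 68973 in replicate 2, together 133847 of the 289038 peaks that the deposited lists of the series hold. Genomic DNA came from wild-type seedlings of 2 weeks. According to the methods they were of the cultivar Nipponbare (Japonica) and were cross-linked with formaldehyde before the DNA was prepared. The incubation buffer held 150 mM KCl and, according to the methods, 5.0 μM PDS. The protocol text that the samples share names PEG and not PDS. The libraries were named by the methods as biological replicates, the parts of the seedlings above ground were collected, so DNA of several tissues was mixed. All 133847 peak names contain the word uniq, and no filter for uniquely aligned reads is named in the methods for these libraries. With 1 condition of 2 libraries no test between groups is possible, so all values are descriptions, with replicate 1 beside replicate 2.

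The deposited lists give the start, end and summit (the base with the most reads) of each peak, and 3 measures of strength. Fold enrichment is the number of reads at the summit divided by the local background, each plus 1. From it and the p-value, the reads and the background of every peak were solved, except for 2 peaks of replicate 1 and 1 of replicate 2. The lowest background, the level of all reads divided evenly over the genome, was 3.15 reads in replicate 1 and 3.98 in replicate 2. With a read extension of 200 bp, this corresponds to 5985000 and 7554100 reads. The replicate with more reads had more peaks, but the peaks covered nearly the same length, 33.9 Mb (9.09% of the chromosomes up to their last peak) in replicate 1 and 33.1 Mb (8.87%) in replicate 2. The mean was 66924 ± 2898 peaks (SD, n = 2).

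Along the chromosomes, K+PDS peaks were found everywhere, but they were densest toward the inner part of most chromosomes and sparsest toward an end. In rice, the regions around the centromeres are rich in retrotransposons and poor in genes, and genes are denser on the outer arms. The positions of centromeres, genes and repeats were not used here. Each chromosome was cut into 10 segments of equal length. The fourth segment held the most summits in both replicates, 12.9% in replicate 1 and 11.6% in replicate 2, where an even spread would give 10%. The last segment held the fewest, 7.77% and 8.67%. The densest segment lay between the third and the sixth on 12 of 12 chromosomes in replicate 1 and on 11 of 12 in replicate 2, with chromosome 9 as the exception, where replicate 2 was densest in the second segment. The sparsest segment was 1 of the first 2 or the last 2 on 12 of 12 chromosomes in both replicates. The same segment was densest in both replicates on 9 of 12 chromosomes.

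**Figure D1:**
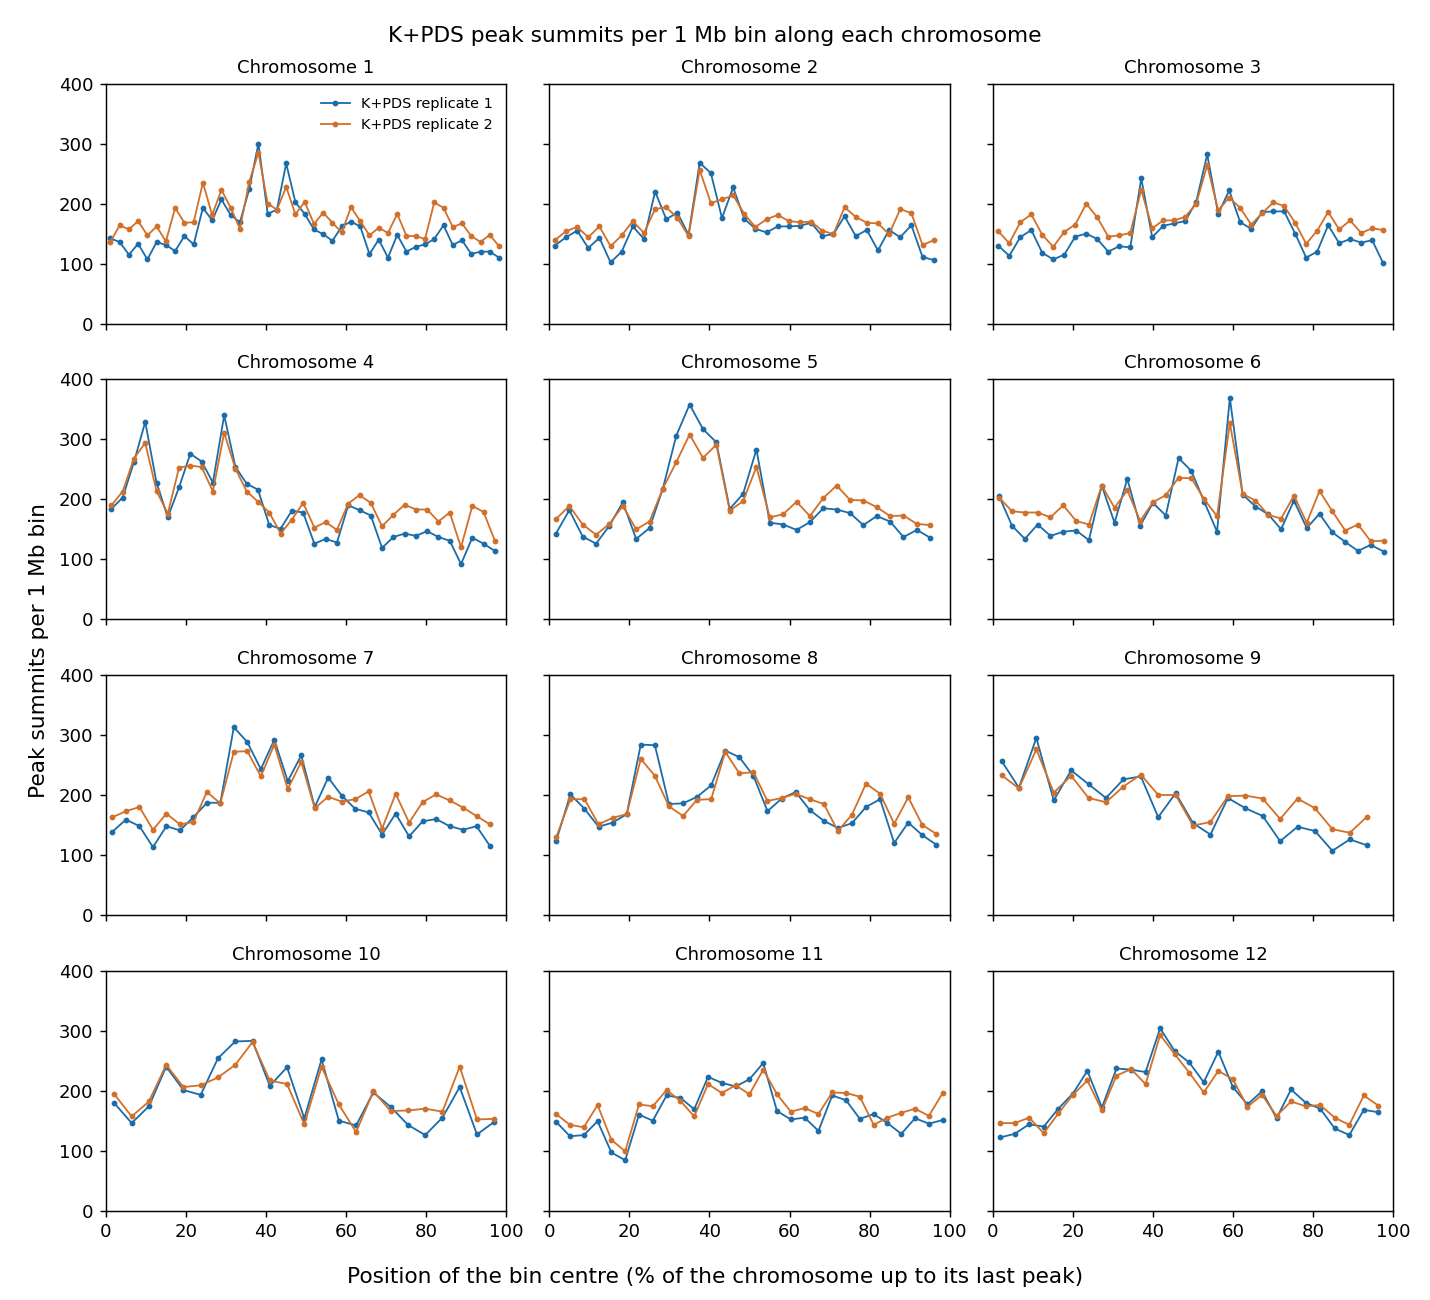
Number of K+PDS peak summits in each full 1 Mb bin (y axis) against the position of the bin centre in % of the chromosome up to its last peak (x axis), 1 panel per chromosome, replicate 1 in blue and replicate 2 in orange. Both lines rise and fall together, with the highest bin of all on chromosome 6 (369 and 327 summits) and the lowest on chromosome 11 (84 and 99 summits).

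The same unevenness was measured in 367 full bins of 1 Mb. In replicate 1 a bin held 84 to 369 summits with a median of 162, and in replicate 2 it held 99 to 327 with a median of 179. No 1 Mb bin was empty. The counts spread more in the shallower replicate 1, with a coefficient of variation of 28.6%, than in replicate 2, with 19.8%. With only the 64874 peaks of the highest −log10 p taken from each library, the values were 28.6% and 19.7%. This setting keeps all peaks of replicate 1 and does not make the depths equal. Across bins, the counts of the replicates had a Spearman correlation of 0.881 and a Pearson correlation of 0.924. Neighbouring bins are not independent, and both lists share a genome and its alignability, so these correlations describe the maps only.

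**Figure D2:**
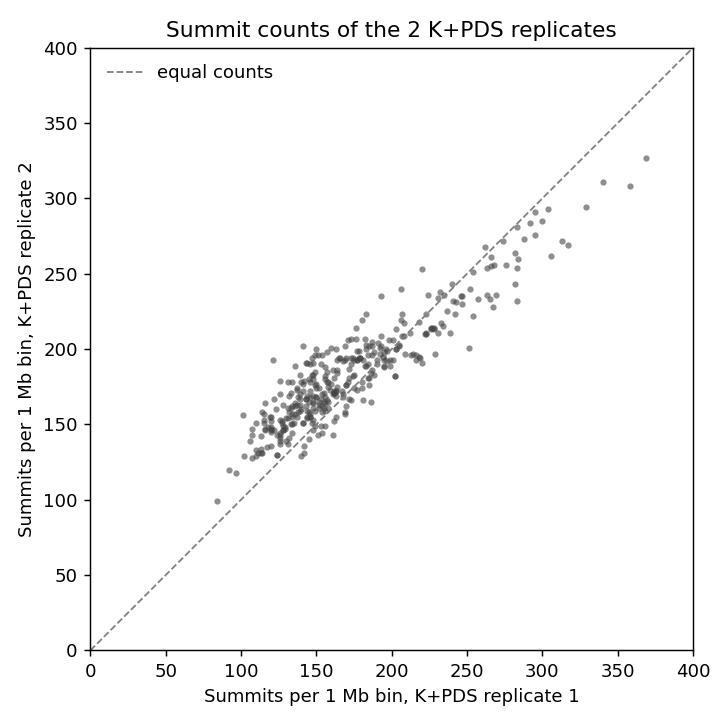
Summits per 1 Mb bin in K+PDS replicate 2 (y axis) against replicate 1 (x axis), 1 point for each of 367 bins, with a dashed line of equal counts. Sparse bins lie mostly above the line and the densest bins below it, so that replicate 1 ranges from 84 to 369 and replicate 2 only from 99 to 327.

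The 5 hot bins of 1 Mb were ranked by the lower count of the replicates, each count divided by the mean of its library. Their density in both replicates therefore follows from the choice. The densest was on chromosome 6 from 18000001 to 19000000 (MSU v7.0), with 369 summits in replicate 1 and 327 in replicate 2, which is 2.12 and 1.77 times the mean bin. On chromosome 4, the bin from 10000001 to 11000000 held 340 and 311 summits, and on chromosome 5 the bin from 10000001 to 11000000 held 358 and 308. Another bin of chromosome 4, from 3000001 to 4000000, held 329 and 294, and on chromosome 12 the bin from 11000001 to 12000000 held 304 and 293. Peaks in these 5 bins were also longer than the library median, with medians of 433 to 484 bp in replicate 1 and 374 to 422.5 bp in replicate 2. Their peaks were overlapped by the other replicate in 66.2 to 69.4% of cases in replicate 1 and in 76.2 to 81.5% in replicate 2. Over all peaks these shares were 64.3% and 61.6%, so that replicate 1 was near its library. The bins were chosen by the counts of both replicates.

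The sparsest bins, ranked by the higher scaled count of the replicates, lay in the outer parts of their chromosomes. Their centres were at 15.1 to 19.0% or at 88.7 to 98.2% of the chromosome up to its last peak. The bin on chromosome 11 from 5000001 to 6000000 held 84 and 99 summits, and its left neighbour from 4000001 held 97 and 118. On chromosome 4, which also has 2 of the hot bins, the bin from 31000001 to 32000000 held 92 and 120. Chromosome 3 from 5000001 to 6000000 held 107 and 128, and chromosome 1 from 42000001 to 43000000 held 110 and 129. A peak of these 5 bins was overlapped by the other replicate in 58.3 to 62.0% of cases in replicate 1 and in 49.2 to 51.9% in replicate 2. Over all peaks it was 64.3% and 61.6%.

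The densest 1 Mb bin of a chromosome was the same in both replicates on 10 of 12 chromosomes, and the sparsest on 5 of 12. In the 10 longer segments used above, by contrast, both the densest and the sparsest segment were the same on 9 of 12 chromosomes. The 2 chromosomes on which the densest bin differed were chromosome 7 and chromosome 8.

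In bins of 100 kb the unevenness was sharper, with 0 to 71 summits in replicate 1 and 0 to 60 in replicate 2 over 3726 bins, and a Spearman correlation between replicates of 0.772. The bin of chromosome 2 from 13600001 to 13700000 held 66 and 60 summits, where the medians of all bins were 16 and 17. Its peaks were strong as well as close, with a median fold enrichment of 5.78 and 5.84, and 95.5% and 96.7% of them were overlapped by the other replicate. Over all peaks the overlapped shares were 64.3% and 61.6%. The bin of chromosome 9 from 2800001 to 2900000 held 54 and 55 summits with a median fold enrichment of 6.74 and 5.61. In 2 other dense bins the peaks were nearer to the library medians of fold enrichment, 3.77 and 3.23. These were chromosome 4 from 7700001 to 7800000 (71 and 55 summits, median fold enrichment 4.10 and 3.62) and chromosome 5 from 9900001 to 10000000 (67 and 50 summits, 4.10 and 3.42). The fifth, chromosome 1 (16800001 to 16900000), held 54 and 57 summits with a median fold enrichment of 5.57 and 4.74. The dense bins therefore differed in the strength of their peaks. In bins of 10 kb, 26.1% were without a summit in replicate 1 and 20.8% in replicate 2, 4984 of 37311 were without one in both, and the Spearman correlation was 0.661.

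Bins with more summits also had longer and stronger peaks. Over 1 Mb bins, the Spearman correlation of the summit count with the median peak length was 0.660 in replicate 1 and 0.441 in replicate 2, and with the median fold enrichment 0.456 and 0.447. To keep the ordering apart from the values, bins were also ordered by the count of the other replicate and divided into 4 groups of 91 or 92 bins. From the sparsest to the densest group, the median length in replicate 1 went from 352 to 406.5 bp and the median fold enrichment from 3.63 to 3.86. In replicate 2 they went from 340.5 to 379.75 bp and from 3.21 to 3.36. Fold enrichment in replicate 2 was 3.22 in both middle groups, so it differed mainly in the densest group. Local background went the other way, with a Spearman correlation of −0.551 and −0.501 between the summit count and the median background of the bin. The share of summits at the lowest background of the library rose with density, from 19.3% to 34.1% in replicate 1 and from 16.1% to 34.1% in replicate 2 between these groups. The background enters the fold enrichment, and its part in the density of peaks was not tested.

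Whole chromosomes differed much less than bins within them. The mean density was highest on chromosome 5, with 189.7 summits per Mb in replicate 1 and 195.7 in replicate 2 (192.7 ± 4.30, SD, n = 2), and lowest on chromosome 3, with 154.6 and 172.6 (163.6 ± 12.7). The ratio of these means was 1.18. The order was not fixed, since chromosome 12 was the densest in replicate 1 with 191.4 per Mb, and chromosome 4 in replicate 2 with 196.6 per Mb. Chromosome 12 differed least between the replicates, with 191.4 and 190.5 per Mb, and chromosome 1 most, with 155.0 and 174.9 per Mb (SD 14.1). Chromosomes 1, 2, 3 and 11 had the lowest ranks in both lists. Chromosome 1, the longest, held the most peaks (6706 and 7566) and chromosome 9 the fewest (4128 and 4409).

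On chromosome 4 the density changed along its length. Its short arm is known in rice as largely heterochromatic. In replicate 1 the first to the fourth segment held 242.0, 214.6, 275.2 and 235.5 summits per Mb, and the later 6 segments held 126.2 to 164.5. In replicate 2 the first to the fourth segment held 239.7, 221.4, 253.5 and 227.0 per Mb, and the later segments held 157.5 to 185.1. The ranges of the early and the late segments did not overlap in either replicate, but the division was placed where these same counts fell. The end of the short arm was not used to place it. Of all summits of chromosome 4, 61.8% in replicate 1 and 56.4% in replicate 2 lay before its middle, and on chromosome 9 it was 60.6% and 55.6%. Chromosome 3 leaned the other way, with 46.4% and 47.6%. On chromosome 5 the fourth segment stood out with 328.1 and 279.4 per Mb, while the other 9 segments held 154.6 to 227.3 in replicate 1 and 162.9 to 222.3 in replicate 2.

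Neighbouring summits were a few kb apart. The median spacing was 2716 bp in replicate 1 and 3009 bp in replicate 2, and the means were larger, 5752 and 5410 bp, because of a long tail of wide spacings. The middle 50% of the spacings reached from 1184 to 7577 bp in replicate 1 and from 1273 to 7202 bp in replicate 2. Replicate 1 had the shorter median although it had fewer peaks, and its spacings varied more, with an SD of 7384 against 6388 bp. Spacings under 1 kb made up 19.8% and 18.1% of all, and spacings of 20 kb or more 5.30% and 3.76%. The wide spacings took up 26.5% and 19.1% of the chromosomes.

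**Figure D3:**
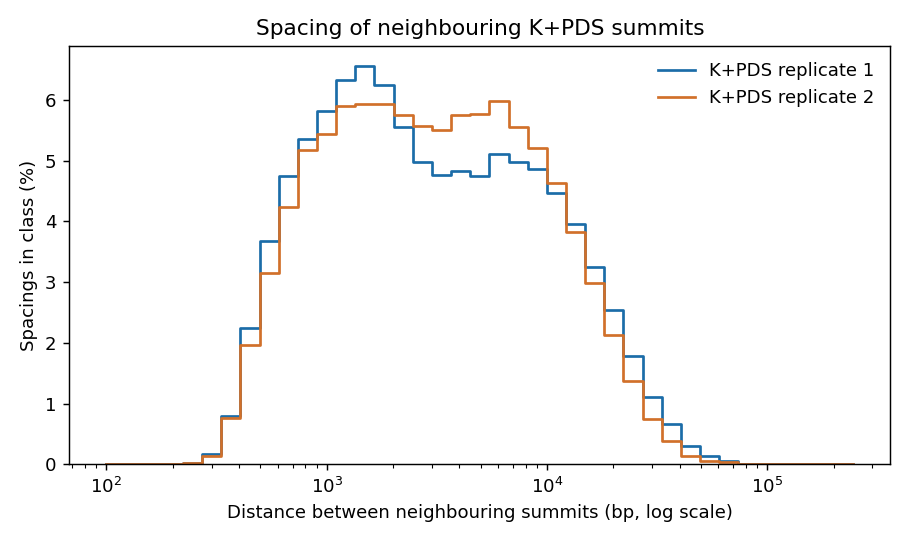
Share of spacings in each class (y axis, %) against the distance between neighbouring summits (x axis, bp, log scale, classes of equal width on that scale), replicate 1 in blue and replicate 2 in orange. Both lists have a broad distribution with a crest between 1349 and 1648 bp (6.56% and 5.94%) and another between 5477 and 6691 bp (5.11% and 5.98%).

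On a log scale the spacings did not form a single crest. Replicate 1 had most spacings in the class from 1349 to 1648 bp (6.56%), fewer between 3005 and 3670 bp (4.76%), and again more between 5477 and 6691 bp (5.11%). In replicate 2 the same classes held 5.94%, 5.50% and 5.98%, so the dip was shallower and the wider crest was as high as the narrow one. No test was made of the number of crests.

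Tight runs of peaks, defined as at least 3 summits of which each lies at most 1 kb from the next, numbered 2480 in replicate 1 and 2059 in replicate 2. They held 13.1% and 10.0% of the peaks. Runs of 5 or more were rare, 213 and 154, and the longest run counted 16 summits in replicate 1 and 8 in replicate 2. Peaks with their nearest neighbour at 1 to 2 kb were the longest and strongest of 5 classes of distance in both replicates, with medians of 449 and 394 bp and a fold enrichment of 3.95 and 3.33. Peaks with a neighbour within 1 kb had 359 and 338 bp and 3.64 and 3.22, and those with none within 10 kb had 342 and 350 bp and 3.68 and 3.22. Peaks of one list do not overlap, so the distance to a neighbour limits the length of a peak. Length also went together with fold enrichment across peaks. These classes therefore do not show a preferred spacing of strong peaks. With a neighbour within 1 kb, 64.2% of peaks in replicate 1 and 65.6% in replicate 2 were overlapped by the other replicate. The shares were highest at 1 to 2 kb, 67.4% and 66.3%, and with none within 10 kb they were 61.4% and 53.3%. Over all peaks they were 64.3% and 61.6%. The number of nearby peaks in the other list was not taken into account.

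Stretches free of peaks were short in most places, and long ones were few. Free of peaks in both replicates were 28 stretches of at least 50 kb, together 1.97 Mb, and 1360 stretches of at least 20 kb, together 36.0 Mb or 9.66% of the chromosomes. Counted in each list alone, the stretches of at least 50 kb numbered 120 in replicate 1 and 60 in replicate 2. A single library therefore gives far more of them than the pair. A place without a peak is below the threshold of the lists and was not shown to lack G4s. Whether reads can be aligned in these stretches was not analysed here.

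The longest empty stretch was on chromosome 11 from 12353021 to 12554800, 201780 bp. Strong peaks stood at its left edge, with a fold enrichment of 18.6 in replicate 1 and 23.9 in replicate 2, and its limits were nearly the same in both lists (201781 and 202416 bp). It contains the only 100 kb bin without any summit in either replicate. The next were chromosome 4 from 15583065 to 15688797 (105733 bp), chromosome 8 from 11155466 to 11254551 (99086 bp), chromosome 7 from 1307670 to 1403852 (96183 bp) and chromosome 2 from 34077637 to 34161036 (83400 bp). The first 3 of these 5 lay at 39.4 to 44.0% of their chromosomes, and the other 2 near an end. Chromosome 11 had the largest share of its length in stretches of at least 20 kb, 14.1%, and chromosome 5 the smallest, 7.16%. Chromosomes 3, 5 and 9 had no stretch of 50 kb.

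Most K+PDS peaks were modest in strength. The median fold enrichment was 3.77 in replicate 1 and 3.23 in replicate 2 (3.50 ± 0.378, SD, n = 2). The summit of a typical peak held 16 and 17 reads (medians). The middle 50% lay between 3.11 and 4.89 in replicate 1 and between 2.80 and 3.93 in replicate 2, and 5% exceeded 7.83 and 5.79. Replicate 2, the deeper list, held more weak peaks, with 35.4% under a fold enrichment of 3 against 21.6% in replicate 1. A fold enrichment of 10 or more was reached by 1003 peaks of replicate 1 and 270 of replicate 2, and 20 or more by 37 and 21. The median −log10 p was 6.64 and 5.98, and 71.6% and 64.0% of peaks had 5 or more.

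The summit background was at the lowest value of the library, within 1%, for 28.0% of peaks in replicate 1 and 25.1% in replicate 2. This share was highest on chromosome 4 (33.8% and 30.0%) and lowest on chromosome 3 (19.6% and 17.3%). Another 63.4% and 65.9% had a background of up to 1.5 times the lowest. Peaks at the lowest background had a median fold enrichment of 4.10 and 3.42, those at 1.5 to 3 times the lowest had 3.10 and 2.64, and the 287 and 246 peaks at 3 to 10 times the lowest had 5.74 and 5.21. Fold enrichment therefore did not fall steadily with background.

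The strongest peaks are given as pairs of overlapping peaks ranked by the lower fold enrichment of the replicates, so that their presence in both lists follows from the choice. The first was on chromosome 2 from 28720415 to 28721892 (replicate 1). Its fold enrichment was 66.3 in replicate 1 and 57.7 in replicate 2, and the summit was at base 28720844 in both. Replicate 1 had a second peak beside it, at 28719172 to 28720278 (fold enrichment 54.8), which replicate 2 covered with the same single peak. These 3 peaks are the ones for which the reads could not be solved. Fold enrichment was next highest on chromosome 9. From 2839814 to 2840392, it was 43.9 and 42.0, from 181 and 208 reads, with summits 33 bp apart. On chromosome 6 from 16741462 to 16741840 it was 29.8 and 28.4, from 129 and 148 reads, with summits 3 bp apart. In replicate 1 these peaks were 579 and 379 bp long, beside a median of 376 bp over all peaks.

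Another 2 strong peaks lay close to the one on chromosome 9. The peak from 2759066 to 2761190 had 33.3 and 27.3, with summits 17 bp apart, and the peak from 2786311 to 2787137 had 29.2 and 22.7, with summits 1 bp apart. All 3 stand within the bins from 2700001 to 2900000, which held 6 and 15 peaks of a fold enrichment of at least 10 in replicate 1 and 6 and 8 in replicate 2. A similar site was on chromosome 2, where the bin from 13600001 to 13700000 held 10 and 6 strong peaks and the bin from 13700001 to 13800000 held 9 and 8. One of them, from 13665410 to 13666299, was among the strongest 10 pairs, with 31.8 and 24.4 and summits 1 bp apart. The remaining pairs were on chromosome 7 from 27891119 to 27891655 (33.2 and 23.5), chromosome 10 from 1233107 to 1234018 (23.4 and 26.7) and chromosome 11 from 12122276 to 12123615 (28.4 and 34.6). The last had nearly the same ends in both lists but its summits were 760 bp apart.

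Strong peaks were spread over all chromosomes. Per 1000 peaks, those with a fold enrichment of at least 10 were most frequent on chromosome 10 in both replicates, 19.8 and 6.44, and least frequent on chromosome 3, 11.2 and 1.75.

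The median length was 376 bp in replicate 1 and 358 bp in replicate 2, with the middle 50% from 265 to 597 and from 258 to 552 bp. The shortest length, 200 bp, was that of 3503 peaks (5.40%) and 3585 peaks (5.20%), and the longest peaks had 7347 and 8861 bp. Peaks of 1 kb or more were 10.1% and 7.58% of the peaks but held 30.1% and 23.5% of the covered bases. Those of 2 kb or more numbered 1066 and 571. The summit lay near the middle of the peak, at a median of 49.2% and 49.3% of its length. Longer peaks were stronger, with a Spearman correlation across peaks between length and fold enrichment of 0.558 and 0.468, and the median fold enrichment rose from 2.89 and 2.74 at 200 bp to 7.05 and 5.92 at 2 kb or more. Peaks are not independent replicates, and both measures come from the same reads.

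**Figure D4:**
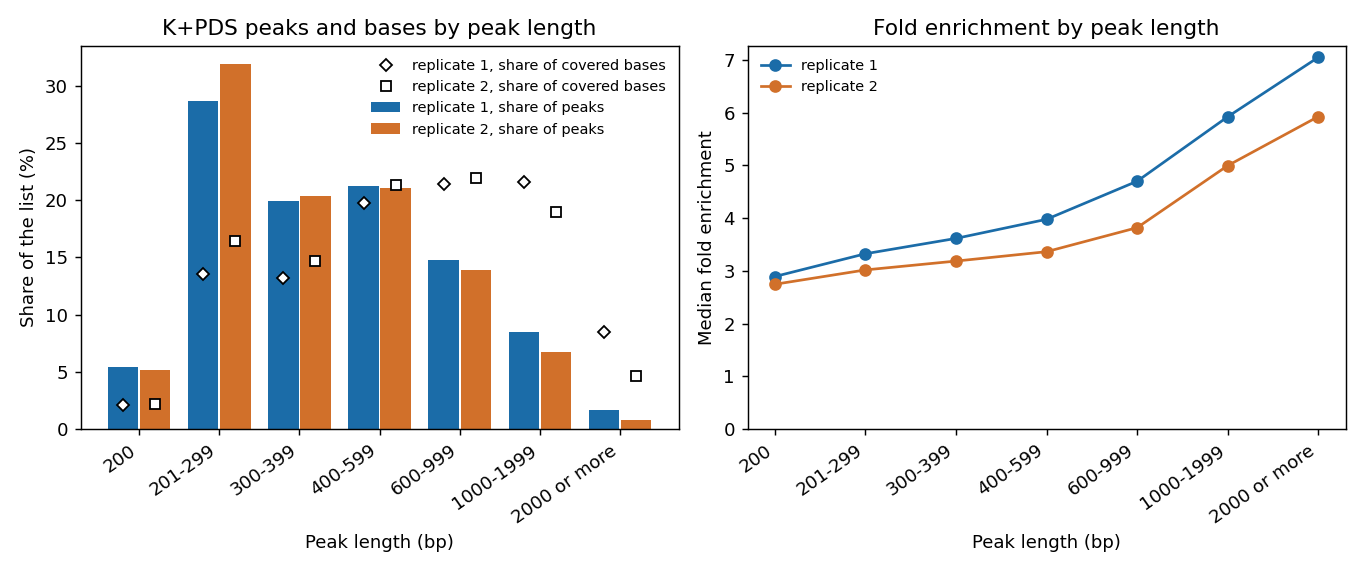
Left, share of the K+PDS peaks (bars) and of the bases they cover (white symbols, diamonds for replicate 1 and squares for replicate 2) in 7 classes of peak length in bp. Right, median fold enrichment (y axis) in the same classes, replicate 1 in blue and replicate 2 in orange, rising from 2.89 and 2.74 at 200 bp to 7.05 and 5.92 at 2 kb or more.

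The longest peaks are likewise given as overlapping pairs, ranked by the shorter length. On chromosome 1 from 17123046 to 17130392, the peak was 7347 bp long in replicate 1 and 8861 bp in replicate 2, with a fold enrichment of 8.42 and 9.24. Near the start of chromosome 6, from 18538 to 25313, the lengths were 6776 and 7236 bp. On chromosome 8 there were 2 such peaks, from 12963385 to 12969983 (6599 and 6757 bp, fold enrichment 12.5 and 11.4) and from 28424550 to 28430337 (5788 and 6548 bp, 11.7 and 9.52). On chromosome 5 the peak from 29839429 to 29845574 had 6146 and 6206 bp. The summits of the last 3 were 2, 0 and 12 bp apart, whereas those of the first 2 were 4037 and 3544 bp apart, so a long peak did not always have a fixed summit. Peaks of 2 kb or more were most frequent on chromosome 10 in both replicates, 20.7 and 12.7 per 1000 peaks.

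A small set of peaks had very many reads over a very high background. A background of at least 10 times the lowest was found at 132 summits of replicate 1 and 118 of replicate 2, with medians of 266 and 235 reads and a fold enrichment of only 4.91 and 3.42. On chromosome 6 from 56032 to 56665, the background was 123.5 and 156.4 reads and the summit had 400 reads in both replicates. With an extension of 200 bp and 1 read kept per position and strand, 400 is the most that can cover a base, and whether this limit held the value down was not tested. The others of the highest background were on chromosome 10 from 20481485 to 20482242 (355 and 297 reads, fold enrichment 3.29 and 2.23), from 10811866 to 10812675 (345 and 256, 3.26 and 1.95) and from 10910457 to 10911274 (305 and 240, 3.12 and 1.94), and on chromosome 4 from 9192792 to 9194077 (368 and 336, 3.53 and 2.42).

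These high-background peaks were clustered. Neighbouring peaks can share their local background and so pass this cutoff together, and the part of this in the clustering was not tested. More of them than not, 75 of 132 in replicate 1 and 66 of 118 in replicate 2, stood in 10 bins of 100 kb with at least 5 each. Chromosome 4 from 9100001 to 9200000 held 11 in each replicate, chromosome 6 from 15400001 to 15500000 held 12 and 8, and chromosome 10 from 10800001 to 10900000 held 8 and 8. Chromosomes 6, 10 and 1 had the most, 24, 22 and 22 in replicate 1 and 20, 20 and 19 in replicate 2, and chromosome 7 had none. The repeats or gene copies at these places were not analysed here.

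Replicate 1 and replicate 2 shared most of their peaks, but not all. Of the peaks of replicate 1, 41682 (64.3%, 95% Wilson interval 63.9 to 64.6%) were overlapped by a peak of replicate 2 by at least 1 bp, and 42478 of replicate 2 (61.6%, 61.2 to 61.9%) by a peak of replicate 1. The intervals cover counting error only. The share of chance overlap was not computed here, and with peaks over 9.09% and 8.87% of the chromosomes it is not zero. By the closer measure of a summit within 100 bp of a summit of the other list, the shares were 33.2% and 31.3%.

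Sharing depended on strength. Peaks of each list were ordered by fold enrichment into 10 classes of equal size. From the weakest to the strongest class, the overlapped share rose from 42.1% to 96.5% in replicate 1 and from 46.6% to 95.2% in replicate 2, with each class above the one before. The share of summits within 100 bp rose from 17.1% to 62.1% and from 19.6% to 61.9%. Overlapped peaks had a median fold enrichment of 4.19 and 3.42 and the others 3.30 and 3.02, and their median lengths were 459 and 425 bp against 288 and 290 bp. A long peak meets another more easily, and the overlapped share rose from 33.9% and 40.9% at 200 bp to 99.9% and 99.6% at 2 kb or more. Within the narrow class of 300 to 400 bp, the stronger peaks were still the more often overlapped, 69.8% against 49.1% in replicate 1 and 63.1% against 51.7% in replicate 2. At 200 bp, the stronger and weaker peaks were alike in this respect, with 33.0% and 34.7% in replicate 1 and 41.3% and 40.4% in replicate 2.

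**Figure D5:**
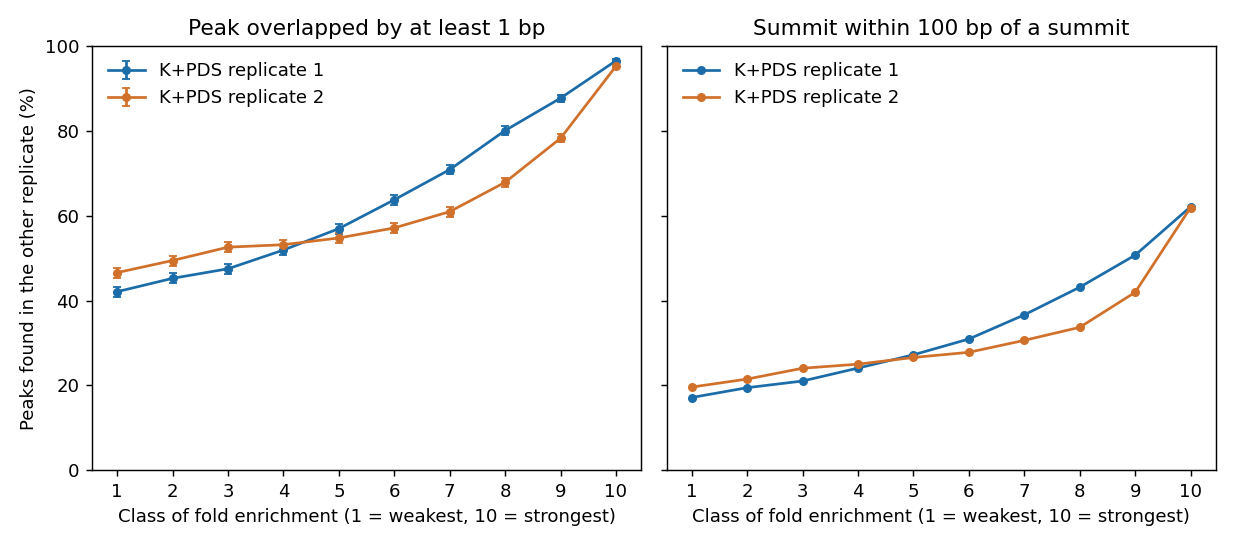
Share of K+PDS peaks found in the other replicate (y axis, %) in 10 equal classes of fold enrichment from the weakest to the strongest (x axis), replicate 1 in blue and replicate 2 in orange. Left, overlap of at least 1 bp with 95% Wilson intervals, rising from 42.1% and 46.6% to 96.5% and 95.2%, and right, summits within 100 bp, rising from 17.1% and 19.6% to 62.1% and 61.9%.

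All 270 peaks of replicate 2 with a fold enrichment of at least 10 were overlapped in replicate 1, and 991 of the 1003 in replicate 1. Of the 12 exceptions, 6 were on chromosome 4, which holds 101 of these 1003 peaks, a count looked up after the strongest had been seen there. At a fold enrichment of at least 8, it was 10 of 54 exceptions. The strongest exception was on chromosome 4 (19849001 to 19849543), where 62 reads gave a fold enrichment of 14.3, and the nearest peak of replicate 2 was 8510 bp away. The next, also on chromosome 4, were from 7877318 to 7877649 (11.6, 845 bp away) and from 21495465 to 21496021 (11.3, 1750 bp away). In replicate 2 the strongest peaks without a counterpart were weaker, at 9.89 on chromosome 6 from 4734665 to 4735101 (54 reads, 10412 bp away), 8.79 on chromosome 9 from 20498338 to 20498651 and 8.51 on chromosome 5 from 6906839 to 6907178.

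Sharing also varied with the place, more so in replicate 2. A share can change with the number of peaks in the other list, which was more uneven in replicate 1, and with peak length. Their parts were not tested. Along the 10 segments of the chromosomes, the overlapped share of replicate 2 went from 54.6% in the ninth to 69.7% in the fourth, whereas that of replicate 1 stayed between 62.8% and 65.6%. Over 1 Mb bins, its Spearman correlation with the summit count was 0.622 in replicate 2 and 0.296 in replicate 1. Per chromosome it was 57.1 to 66.5% in replicate 2 and 62.7 to 66.2% in replicate 1. After each count was divided by the mean of its library, the ratio of replicate 1 to replicate 2 over bins was 0.666 to 1.33 with a median of 0.987, and it was below 0.8 in 18 bins and above 1.25 in 3.

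The overlapping peaks formed 45024 pairs, since 2748 peaks of replicate 1 met 2 peaks of replicate 2, 283 met 3 or more, and 2265 and 135 peaks of replicate 2 did so in turn. The summits of a pair lay a median of 108 bp apart, within 20 bp in 14.0% and within 100 bp in 47.9% of pairs, and at the identical base in 331. In the 34382 pairs of which each peak met 1 peak only, the median was 85 bp, and it fell from 114 bp in the weakest to 50.0 bp in the strongest of 10 classes of these pairs. Strength was only partly kept between replicates. The Spearman correlation across these pairs was 0.484 for the fold enrichment and 0.509 for the length, and 0.693 for the background. Fold enrichment was higher in replicate 1 in 73.4% of the pairs. The median ratio of replicate 1 to replicate 2 over all these pairs was 1.20. Fold enrichment was within 1.5-fold in 73.1% and differed by more than 2-fold in 6.02%.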

How the data were processed

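BG4-DNA-IP-seq libraries of rice seedling DNA under K+PDS (2 replicates) were analysed, grouped by the sample titles. The authors used Trim Galore for trimming and BWA for alignment to MSU v7.0, removed duplicates and called peaks in each library with MACS2 at p = 0.01 with a genome size of 380000000 bp. The control and read extension given to MACS2 are not given in the sources used here. The lists deposited by the authors hold, per peak, a fold enrichment (a linear ratio), −log10 p and −log10 q, and a score that equals the whole part of 10 times the −log10 p and was not used otherwise. No replicates were pooled.

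Positions are 1-based. A summit is the start plus the offset in the list. Reads and background at the summit were solved from fold enrichment and −log10 p under a Poisson distribution, with a relative tolerance of 0.0001, and the depth (5985000 and 7554100 reads) from the lowest background. An extension of 200 bp, the shortest peak length, was assumed. Chromosomes were taken to end at their last peak. The MSU v7.0 sequence and annotation were not used here, so no genes or motifs are named. Python 3.11.15, numpy 2.4.6, pandas 2.3.3, scipy 1.17.1 and matplotlib 3.10.9 were used, and the recovery of reads, overlaps and bins were tested on simulated data. The members, lists and rules were chosen with earlier results of these data known. Named by rule were the 10 strongest, 5 longest and 5 highest-background pairs (by the lower value of the replicates), the 5 densest and 5 sparsest bins of 1 Mb and 100 kb, the 5 longest empty stretches, the 3 strongest unshared peaks per replicate, and the highest and lowest chromosome. Counts of bins were divided by the mean of their library. The densest bins were ranked by the lower scaled count of the replicates and the sparsest by the higher. The classes by chromosome and the clusters of strong and high-background peaks were added after values had been seen. Alternatives were a −log10 p of at least 5, q of at most 0.05, equal numbers of peaks, other bins, overlaps and tolerances, and each replicate alone.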

Additional observations from a re-analysis of the deposited data

How the results depend on the processing

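Of 44 alternatives to 12 results, 0 reversed a direction. This says nothing about stability, since the results are sizes, and only the correlation over bins has a sign. In 18 alternatives 1 replicate stood alone. Where a result is a mean of 2 libraries, these say nothing about stability, because it lies within their SD of each by construction. The ratio of chromosomes and the empty stretches are not such means. The ratio without replicate 2 (1.24 against 1.18, SD 0.0572) and the empty stretches with either replicate alone moved further. Of the other 26, 11 stayed within the spread between replicates or, for counts, within 1.5 times, and 15 were counted as moved. The correlation over bins and the summit distance have no spread between replicates, and all their alternatives are among these 15. With bases covered in place of summits, the ratio of the densest to the sparsest chromosome went from 1.18 to 1.33 and the correlation over 1 Mb bins from 0.881 to 0.948 (0.9475). This correlation was 0.772 in 100 kb bins, 0.875 with bins moved by 0.5 of a bin, and 0.859 with only peaks whose −log10 p was 5 or more. With that cutoff the median spacing was 4458 bp, the empty stretches of at least 50 kb were 84, the median length was 432.5 bp and the overlapped share 57.6%, where fewer peaks enter by construction. For overlapped peaks alone the median length was 442 bp. The overlapped share was 40.8% with a reciprocal overlap of at least 50%, and 32.2% by summits within 100 bp. The summit distance was 85 bp in one-to-one pairs and 71 bp with the reciprocal overlap. The share of summits at the lowest background was 33.3% with a tolerance of 5%. With each replicate alone, the ratio of chromosomes was 1.16 and 1.24 and the empty stretches were 60 without replicate 1 and 120 without replicate 2. The spread over bins and the share of the fourth of 10 chromosome segments were added after seeing the data, and the latter was 12.3% also without chromosome 4.

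No paired analysis was possible because the values come from 1 condition and from no test. Chromosome lengths of the build, motif shares and gene shares were planned and not run, since no genome of MSU v7.0 was used here. The lists hold nothing below the threshold, and a depth of 5985000 and 7554100 reads limits the weakest peaks to 8 and 9 reads at the summit.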

Other observations

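The 1 Mb bins in which the replicates differed most were picked after their values had been seen. Relative to the mean of each library, replicate 1 was highest against replicate 2 on chromosome 2 from 14000001 to 15000000, with 251 and 201 summits and a scaled ratio of 1.33, next to the bin with the dense 100 kb sites of that chromosome. It followed on chromosome 8 from 7000001 to 8000000 with 283 and 232 summits, and on chromosome 5 from 11000001 to 12000000 with 317 and 269, the right neighbour of a hot bin. Replicate 2 was highest against replicate 1 on chromosome 1 from 7000001 to 8000000, with 121 and 193 summits and a ratio of 0.666, on chromosome 3 from 35000001 to 36000000 with 101 and 156, and on chromosome 1 from 35000001 to 36000000 with 141 and 202. Without any scaling, replicate 1 had more summits in 105 of 367 bins.

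The median fold enrichment of a 1 Mb bin was less alike between replicates than its count, with a Spearman correlation of 0.470 over 367 bins against 0.881 for the counts. Bins of a replicate share its library and their peaks share the local background, so this is a description.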
